A study of Homo sapiens with 4 samples.

Results

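Long coiled-coil proteins form rods in which helices wind around each other, built on a heptad repeat with hydrophobic residues at set positions and many charged residues, such as glutamate and lysine, between them. The 10 transcripts described here encode proteins with coiled-coil parts, in 3 settings. MYH9, MYH10, DYNC1H1 and KIF5B are cytoskeletal motors. GOLGA4, GOLGB1 and EEA1 are Golgi and endosome tethers, and CENPE, CENPF and PCNT are mitotic and centrosomal proteins. The genes were taken by name from GENCODE 44, which holds 62700 genes, of which 19701 are protein-coding with a canonical coding transcript. All 10 were found and all 10 held crosslinking events. The codons of glutamate (GAA and GAG) and lysine (AAA and AAG) consist of purines.

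The events came from 4 iiCLIP libraries of HEK293T, a transformed human embryonic kidney line, and all 4 belong to the same condition. The cells were transiently transfected with a plasmid for PR100-FLAG, a proline-arginine dipeptide repeat of the kind made from the expanded C9orf72 repeat, joined to a triple FLAG tag. Expression was induced with 150 ng/ml doxycycline for 24 h, and UV light at 160 mJ/cm2 fixed protein to RNA before FLAG immunoprecipitation. SDS-PAGE served to isolate the complexes in 3 libraries (replicates 1 to 3), and beads in the remaining library (replicate 4). Each cDNA ends next to the crosslinked nucleotide, so a crosslinking event is a unique cDNA at a position. The labels do not say whether the replicates were separate cultures, so the spread between libraries may be technical. Libraries of control cells were not analysed here, and the level of each RNA in the cells was not measured, so a strongly bound RNA and an abundant RNA cannot be told apart.

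The libraries held 334057, 604816, 125694 and 179636 events in replicates 1 to 4, and the 10 genes took up 723, 1238, 273 and 505 of them. Replicate 3 stood apart. Its 207 coding events in the 10 genes lay on 47 positions, or 4.40 cDNAs per position, against 1.53, 1.63 and 1.02 in replicates 1, 2 and 4. Replicate 3 also had the shortest random barcode, at 5 nt against 7 nt in the others. Whether PCR duplicates were fully collapsed in replicate 3 was not tested, so its events may not all be separate molecules, and its counts and intervals carry this limit. Counts over the genes that require every library to pass are therefore given with and without it where a value without it was computed. The pooled clusters include it.

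All significant clusters of the pooled libraries in these genes had their summit, the position with the most cDNAs, in the coding sequence. There were 38 such clusters with 506 events, none with a summit in an untranslated region or an intron. Among the 4022 pooled clusters with a summit in a protein-coding gene, 63.7% were coding, 21.7% intronic and 7.51% in a 3′ UTR. Every gene held at least 1 coding cluster, from 1 in EEA1 and PCNT to 7 in CENPF and 8 in MYH10, whereas 22.2% of the 5071 protein-coding genes with at least 50 pooled events had one. Most were small. The largest, in KIF5B, held 23 events, and 30 of the 38 did not overlap a cluster called in a single library. With the clusters of single libraries, 7 of the 10 genes had a coding cluster, against 10.0% of the 5071 genes. Both comparisons depend on depth, since a gene with few events can hold few clusters. The 10 genes held from 114 pooled events in EEA1 to 400 in CENPF, at ranks 1936 and 119 among protein-coding genes. They thus lay in the upper part of the 5071 by events. The shares at matched depth were not computed, so a trait of these genes cannot be told from their depth here.

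The sequences at the largest coding cluster of each gene are shown so that the crosslinked RNA can be read directly. Each runs 5′ to 3′ on the strand of the gene, beginning 5 nt before the summit and ending 24 nt after it, so that the summit is the sixth base, and was read from GRCh38. Capitals mark GANGA motifs (GAAGA or GAGGA or GACGA), the group of pentamers examined in the study.
MYH10 exon 24, chr17:8512495-8512524, minus strand: ctagggttGAAGAAGAAGAAGAaagaaacc
DYNC1H1 exon 50, chr14:102029844-102029873, plus strand: ggataaagagccaagagctggaggtGAAGA
CENPF exon 6, chr1:214620730-214620759, plus strand: ttctcatggcagcaagaGAAGAccccaagt
CENPF exon 13, chr1:214645899-214645928, plus strand: cacagGAGGAagtgcatcagctgaGAAGAg
CENPF exon 13, chr1:214647087-214647116, plus strand: tcattcaagaagtaGAAGAtggcaagcaga
MYH9 exon 21, chr22:36301534-36301563, minus strand: ctcacggagatggagacgctgcagtctcag
KIF5B exon 20, chr10:32019906-32019935, minus strand: gcaggaacgtctaagagtagaacatgagaa
GOLGA4 exon 13, chr3:37321838-37321867, plus strand: tgaaaataaacttcgggaccttcagcaaga
GOLGB1 exon 13, chr3:121697326-121697355, minus strand: gacttctaagtgccaagaaatagaaattta
EEA1 exon 26, chr12:92777992-92778021, minus strand: ggatgacttacggggtgaaattgcagtatt
CENPE exon 34, chr4:103143320-103143349, minus strand: gaaactattgataaactaagagggattgtt
PCNT exon 14, chr21:46363674-46363703, plus strand: gaccatcataaacaagtttgagcttcgaga

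The clusters behind these windows held 20 events in MYH10, 16 in DYNC1H1, 17 in each of the 3 equal clusters of CENPF, 15 in MYH9, 23 in KIF5B, 15 in GOLGA4, 21 in GOLGB1, 10 in EEA1, 13 in CENPE and 13 in PCNT. The MYH10 window holds 4 overlapping copies of GAAGA in a row. The windows of MYH9, KIF5B, GOLGA4, GOLGB1, EEA1, CENPE and PCNT hold no GANGA motif. In all, 16 of the 38 clusters (42.1%) had a GANGA motif near the summit, beginning at most 5 nt before or 30 nt after it, against 38.2% of the 2602 coding summits of all protein-coding genes, counted once for each gene they lie in. The clusters differed in how far 1 library or 1 position made them up. The MYH9 cluster in exon 21 held 2, 3, 9 and 1 events in replicates 1 to 4, and the 9 of replicate 3 lay on a single nucleotide. Replicate 3 also placed other printed windows. It gave 5 of the 6 cDNAs at the GOLGA4 summit, all 6 in EEA1 and all 5 in PCNT. The share of clusters with a motif near the summit includes such summits. The MYH10 cluster in exon 24 held 4, 12, 0 and 4, with at most 3 at a position. The 3 at its summit, which placed the printed window, all came from replicate 1. In every printed window except that of GOLGA4, all cDNAs at the summit came from 1 library.

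Coding exons were compared with introns because a cytoplasmic message has lost its introns. Of the 2739 pooled events in the 10 genes, 1997 (72.9%) lay in the coding sequence and 626 in introns. By library, the coding share was 63.8%, 73.7%, 75.8% and 82.4% in replicates 1 to 4. Per kb, the coding sequence held from 12.99 events in EEA1 to 40.2 in GOLGA4, and the introns from 0.370 in EEA1 to 0.900 in PCNT. In each gene the intronic density was below 1 event per kb. The coding sequence was denser than the introns in every library for 9 of the 10 genes, against 36.0% of the 4019 protein-coding genes tested. The exception was KIF5B, with 0 coding and 2 intronic events in replicate 3. Without replicate 3 the count was 10 of 10, and the background rose to 77.4%. Depth enters this comparison, since a gene with few events often has none in a small library. Among genes with at least 100 coding and intronic events, 9 of the 10 genes and 48.5% of 1817 genes passed. The median over the genes of the log2 ratio of coding to intronic density was 5.23, against a median of 3.55 over the genes tested, whose middle range (quartiles) was 2.70 to 4.38.

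The 3′ UTR gives a comparison within the mature message, chosen after the data were seen. The coding sequence was denser than the 3′ UTR in every library for 8 of the 10 genes, against 44.2% of 1345 protein-coding genes with at least 50 events in both parts together. The exceptions were KIF5B and MYH10. Without replicate 3, 9 of 9 genes and 72.1% of 1207 passed, and EEA1 fell below the minimum of events. Depth and 3′ UTR length enter this comparison too. A gene with no 3′ UTR event in a library passes there with any coding event. A gene with no coding event there fails. The median log2 ratio was 2.58 in the 10 genes and 1.33 over the 1345. EEA1 and DYNC1H1 had the highest means over the libraries of this log2 ratio (0.5 added to each count), at 4.13 and 4.09. The 3′ UTR of EEA1 is 5377 nt long, longer than its coding sequence of 4233 nt, and held 3 events against 55. That of DYNC1H1, of 5883 nt, held 9 against 321, so that their densities were 0.558 and 1.53 events per kb in the 3′ UTR and 12.99 and 23.0 in the coding sequence. By pooled densities GOLGB1 stood further apart than either, with 0.780 events per kb in the 3′ UTR (1 event) and 19.9 in the coding sequence. KIF5B had the lowest mean log2 ratio, 0.99, with 14.7 pooled events per kb in the 3′ UTR and 39.8 in the coding sequence. By pooled densities MYH9 was close to it, with 7.91 and 21.1. The 3′ UTR of KIF5B held 12, 18, 0 and 7 events in replicates 1 to 4. CENPF and PCNT had no event in their short 3′ UTRs of 780 and 445 nt. In GOLGA4, GOLGB1 and CENPE, only replicate 2 had any 3′ UTR event. Where a library had none, the log2 ratio rests on the 0.5 added to the count.

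At the level of the whole gene, 8 of the 10 genes held at least 200 pooled events, the event minimum of the study's gene-level analysis (its limit on control binding was not applied here), as did 4.13% of the 16578 protein-coding genes with an event. MYH9, at 205, was just above this minimum, and KIF5B, at 190, just below. EEA1 held 114. Their ranks by pooled events among the 19701 genes ran from 119 for CENPF to 1936 for EEA1. The number that passed was 4 without replicate 1, 2 without replicate 2, 7 without replicate 3 and 6 without replicate 4. The shares of all protein-coding genes fell too, to 1.94%, 0.978%, 3.38% and 2.74%. These are long messages, with a median coding length of 7396.5 nt against 1326 nt over 19030 coding sequences of at least 300 nt, and a long message offers more positions. Per kb of coding sequence, the median coding level was 19.9 CPM (events per 1000000 events of the library) in the 10 genes and 21.5 CPM over the 1047 genes with at least 50 coding events, and 4 of the 10 lay above the latter. The 1047 genes were chosen by their number of coding events, and the median without this minimum was not computed.

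The non-muscle myosin heavy chains MYH9 and MYH10 pair through a C-terminal coiled-coil rod and form contractile filaments. MYH9 lies on chromosome 22 (36281280 to 36388010, minus strand) and held 44, 92, 33 and 36 events in replicates 1 to 4. In its coding sequence there were 23, 60, 15 and 26, and in its introns 18, 24, 16 and 8. As levels, the events of the gene came to 187 ± 58.2 CPM (SD, n = 4). MYH10 lies on chromosome 17 (8474207 to 8631376, minus strand) and held 78, 144, 17 and 67 events, or 245 ± 97.6 CPM (SD, n = 4). Of these, 46, 94, 12 and 53 were coding and 30, 38, 1 and 11 intronic. The paralogs differed in the direction of the libraries. In CPM, MYH9 was highest in replicate 3, at 263, where MYH10 was lowest, at 135. These values rest on 33 and 17 events, with 5 and 4 cDNAs per coding position, and the contrast was not tested. MYH10 was highest in the beads library, at 373.

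Cytoplasmic dynein 1 carries cargo towards microtubule minus ends, and DYNC1H1 encodes its heavy chain. The gene lies on chromosome 14 (101964573 to 102056443, plus strand), with 78 exons and the longest coding sequence of the 10, of 13938 nt. It held 75, 197, 34 and 85 events in replicates 1 to 4, or 323 ± 108.0 CPM (SD, n = 4), and 56, 159, 33 and 73 of them were coding. Its coding share was 84.6% ± 9.50 (SD, n = 4). KIF5B encodes the heavy chain of kinesin-1, which moves towards plus ends. It lies on chromosome 10 (32009015 to 32056425, minus strand) and has the shortest coding sequence of the 10, of 2889 nt. It held 61, 93, 3 and 33 events, or 136 ± 76.0 CPM (SD, n = 4), and 34, 59, 0 and 22 were coding. The 0 of 3 events in replicate 3 allows a coding share of up to 56.1% there (Wilson 95% interval, counting error only), which is below the 63.4% and 66.7% of replicates 2 and 4 but above the 55.7% of replicate 1.

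GOLGA4 and GOLGB1 encode golgins, which extend from Golgi membranes and capture vesicles. GOLGA4 lies on chromosome 3 (37243191 to 37366879, plus strand) and had the highest mean level, at 335 ± 92.7 CPM (SD, n = 4). It held 136, 147, 53 and 48 events, of which 78, 103, 49 and 39 were coding. Its replicate 3 coding events lay on few positions, at 4.90 cDNAs per position. GOLGB1, on chromosome 3 as well (121663199 to 121749966, minus strand), held 65, 94, 25 and 48 events, or 204 ± 46.4 CPM (SD, n = 4). Coding events were 50, 77, 25 and 43, and introns held 15, 16, 0 and 5. EEA1, an early endosome tether that binds the GTPase RAB5, lies on chromosome 12 (92770637 to 92929331, minus strand). It had the lowest level, at 107 ± 44.9 CPM (SD, n = 4), with 38, 41, 21 and 14 events, and as many coding as intronic events, 55 each. Its coding share of 47.4% in replicate 1 (Wilson 95% interval 32.5% to 62.7%) has an interval that holds the values of replicates 2 and 3, at 43.9% and 42.9%. It was 71.4% in replicate 4 (45.4% to 88.3%), and these intervals overlap.

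CENPE is a kinetochore kinesin that aligns chromosomes, and CENPF is a large kinetochore and nuclear matrix protein made in late cell cycle stages. CENPE lies on chromosome 4 (103105349 to 103198445, minus strand) and held 84, 120, 9 and 56 events, or 208 ± 102 CPM (SD, n = 4). CENPF lies on chromosome 1 (214603185 to 214664574, plus strand). With 400 pooled events it held the most of the 10, in 90, 197, 34 and 79 events, or 326 ± 80.1 CPM (SD, n = 4). Its coding share was the highest, at 90.0% ± 7.37 (SD, n = 4), and introns held 14, 20, 0 and 8 events. PCNT, a scaffold of the pericentriolar material, lies on chromosome 21 (46324124 to 46445769, plus strand) and held 52, 113, 44 and 39 events, or 227 ± 85.5 CPM (SD, n = 4). Its introns had the highest density of the 10 genes, at 0.900 events per kb, with 26, 46, 20 and 8 intronic against 26, 67, 24 and 31 coding events.

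Neighbours in the order of mean CPM could not be separated. From GOLGA4 through CENPF, DYNC1H1, MYH10, PCNT, CENPE, GOLGB1, MYH9 and KIF5B to EEA1, none of the 9 neighbouring pairs kept its order in all 4 libraries. Exact permutation tests that flip the sign of the difference in each library (two-sided) gave unadjusted p from 0.25 to 1. This test can give no p below 0.13 with 4 libraries, so none of the comparisons of single genes here could pass 0.05.

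Together, the genes came to 2164, 2047 and 2172 CPM in the SDS-PAGE replicates 1 to 3 and 2811 CPM in the beads replicate 4. CENPF, MYH10, CENPE, KIF5B, GOLGB1 and DYNC1H1, that is 6 of the 10, had their highest CPM in replicate 4, against 31.2% of the 5071 genes with at least 50 pooled events. DYNC1H1, for example, was at 225, 326 and 270 CPM in replicates 1 to 3 and 473 in replicate 4. For coding events alone the counts were 7 of the 10 genes and 73.7% of 1050, so the share of the genes was close to the background there. Without replicate 3 the counts were 8 of 10 and 41.5%. With a single beads library the effect of the purification was not tested. The coding share of the 10 genes was also highest in replicate 4, and so was that of all protein-coding genes. These had 54884 coding and 52526 intronic events in replicate 4, against 44178 and 151400, 116694 and 190914, and 18078 and 45691 in replicates 1 to 3.

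Events spread along the coding sequence of each gene, and with each coding sequence cut into 10 equal segments, each segment held at least 1. On average over the libraries, the part before the midpoint held from 38.6% ± 13.6 (SD, n = 3) of the coding events in KIF5B to 65.0% ± 15.8 (SD, n = 4) in PCNT. The median over the 10 genes was 51.5%, against 51.1% over the 797 genes tested. CENPF and PCNT had over 50% of their coding events before the midpoint in every library, that is 2 of the 9 genes with a coding event in each library, against 11.3% of the 797. No gene had under 50% in every library, as did 8.91% of the 797. CENPF held 51.4%, 55.7%, 82.4% and 70.0% before the midpoint in replicates 1 to 4, and PCNT 88.5%, 58.2%, 58.3% and 54.8% (p = 0.13 each, the exact sign-flip test). The 88.5% of PCNT rests on 26 coding events, at 1.625 cDNAs per position. Its Wilson 95% interval, from 71.0% to 96.0%, takes each cDNA as independent. The other 3 libraries were close to one another. Without replicate 3, the count was again 2 of 9, against 20.2%.

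KIF5B and EEA1 were the most uneven. In KIF5B, segment 8 of the coding sequence held 33 of the 115 coding events (28.7%), in 10, 20, 0 and 3 events by library, and no GANGA motif. Within it, exon 20, of 102 nt, held 23 of the 115 on 3.53% of the coding length, in a gene with only 2889 coding nt. In EEA1, segments 9 and 10 held 11 events each of 55. The 11 of segment 10 included 6 from a single position in replicate 3. The large exons of the golgins and CENPF carried most of their events. Exon 14 of GOLGA4, with 63.3% of the coding length, held 81.8% of the coding events, in 57, 91, 42 and 30 events by library. Exon 13 of GOLGB1 held 69.2% on 53.0% of the length, and exon 12 of CENPF 42.4% on 36.4%. No exon dominated in DYNC1H1, where exon 8 had the most events, 20 of 321.

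GANGA motifs were more frequent in each of these coding sequences than in the median gene. GAA and GAG made up 8.22% of the codons of DYNC1H1, the lowest of the 10, and 16.6% of those of GOLGA4, the highest, against a median of 6.62% over 19030 coding sequences. Purines made up 53.7% to 62.9% of the bases against a median of 52.0%. GANGA occurred 7.62 times per kb in KIF5B and up to 21.6 times in MYH9, against a median of 6.15. All 10 genes were above each of these medians. For GANGA, however, KIF5B, DYNC1H1, CENPE and CENPF lay within the quartiles of all coding sequences, 4.07 to 8.82 per kb. In the myosins most motifs lay after the midpoint of the coding sequence, with 83 of 127 in MYH9 and 76 of 109 in MYH10. The events were spread more evenly, with 55 of 124 after the midpoint in MYH9 and 100 of 205 before it in MYH10.

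To measure how often events lay near the motif, the share of coding events with a GANGA beginning at most 5 nt before or 30 nt after them was divided by the same share of all coding nucleotides of the gene. The median of this ratio was 1.16 over the 10 genes and 1.15 over the 794 genes tested. It was over 1 in every library for MYH10, GOLGA4 and DYNC1H1, that is 3 of the 9 genes tested, against 17.9% of the 794. In MYH10, 56.5%, 46.8%, 66.7% and 62.3% of the coding events in replicates 1 to 4 lay near a motif, and 42.7% of its coding nucleotides. In GOLGA4 the shares were 41.0%, 49.5%, 69.4% and 48.7% against 38.0%. In DYNC1H1 they were 44.6%, 29.6%, 24.2% and 30.1% against 23.9%. The mean ratios were 1.36 ± 0.201, 1.37 ± 0.318 and 1.34 ± 0.365 (SD, n = 4), with p = 0.13 for each in the exact sign-flip test. MYH9, the gene with the densest motifs, had a mean ratio of 1.02 ± 0.264 (SD, n = 4), above 1 in replicates 1 and 4. EEA1 ranged from 0.409 in replicate 1, with 18 coding events, to 1.64 in replicate 2, with 18. Without replicate 3, 4 of 9 genes passed, against 38.0%. With each position counted once, 5 of 8 genes passed, against 27.6%. Without the events inside significant clusters, the mean ratio of DYNC1H1 was 0.920.

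Other genes for coiled-coil, motor, Golgi and centrosome proteins gave the wider setting, from a list of 50. Their pooled events ran from 14 to 513 with a median of 107.5, and 5 of the 50 held at least 200. These were CUX1 with 513, TPR with 403, KIF1B with 260, PCM1 with 259 and CCDC88A with 204. CUX1, which encodes a transcription factor and, by an alternative transcript, a Golgi protein, had 59 coding and 384 intronic events. TPR, the coiled-coil protein of the nuclear pore basket, had 330 coding and 66 intronic events, or 342 ± 130 CPM (SD, n = 4). The coding sequence was denser than introns in every library for 28 of the 42 list genes tested (66.7%), and their median log2 ratio of coding to intronic density was 4.46. The GANGA ratio was over 1 in every library for 1 of 21 (4.76%), over 50% of the coding events lay before the midpoint in every library for 2 of 21, and 21 of 44 had their highest CPM in the beads library. By their CPM in the 4 libraries, the protein-coding genes outside the 10 that lay closest to the mean of the 10 were SPTBN1, CSPP1 and RCC1, among 677 with at least 200 events. SPTBN1, which encodes a spectrin of the membrane skeleton, was at 201, 198, 167 and 251 CPM. Its Euclidean distance was 0.088 on the scale of log2(CPM + 1), the smallest of the 677 by selection. The 10 genes themselves, which were not chosen by distance, lay 0.36 to 2.85 from their mean.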

How the data were processed

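The authors collapsed PCR duplicates by random barcode, mapped 100-nt reads with STAR to GRCh38 with Gencode 27, allowing 2 mismatches, and kept uniquely mapping reads. The deposited values are counts of unique cDNAs per crosslinked position and strand, without normalisation. The deposited clusters come from iCount (false discovery rate below 0.05), and the distance over which positions were joined and the version of STAR are not given in the sources used here.

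Positions were placed here on the canonical transcripts of GENCODE 44 (GRCh38), a later release. Where genes overlap on a strand, each received the event. The pooled list was checked to be the exact sum of the libraries at all 784115 positions. CPM used the total of each library. For log2 ratios of densities 0.5 was added to each count. Genes entered a background count with at least 50 pooled events of the kind compared, and with parts of at least 300 nt for densities. Position and motif comparisons also required a coding event in each library. Tests flipped the signs of the library values exactly (permutation, two-sided). The members, the related genes and the tests were chosen with earlier results of these data known. Named genes were the 10 members, the 5 related genes with the most events and the 3 genes closest in CPM, and within a gene the exon and cluster with the most coding events. Of the alternatives, 85 were planned and 8 were added later, with the 3′ UTR comparison. The counting was tested on simulated data. Intervals cover counting error only and take each cDNA as independent, also where several share a position. The depth, 125694 to 604816 events, left 3 to 197 events per gene and library. Python 3.11.15, numpy 2.4.6, scipy 1.17.1, pysam 0.24.0 and matplotlib 3.10.9 were used.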

Additional observations from a re-analysis of the deposited data

Results flagged for a closer look

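In 4 of 48 sets of 4 library values, 1 library lay far from the other 3 by Dixon's ratio of gap to range, which chance alone exceeds in about 1 of 20 sets. Replicate 1 had 34.8% of the MYH9 coding events before the midpoint of the coding sequence, against 57.7% to 61.7% in the other libraries. Replicate 1 had 88.5% of the PCNT coding events there, against 54.8% to 58.3%. Replicate 3 had 0% of the KIF5B events in the coding sequence, out of 3 events, against 55.7% to 66.7%. Replicate 4 had 71.4% of the EEA1 events in the coding sequence, out of 14, against 42.9% to 47.4%.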

How the results depend on the processing

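The number of genes with at least 200 events was 8. It ranged from 2 to 7 when 1 library was left out (0.978% to 3.38% of all protein-coding genes), was 4 with each position counted once (1.53%), and 1 with a minimum of 400 (0.724%). The median share before the midpoint, 51.5%, ranged from 49.0% to 53.5% without 1 library. It was 48.2% with each position counted once, 46.3% without events in clusters, and 47.5% for the first against the last of 3 equal parts, so its side of 50% depended on these choices. The genes over 50% in every library were 2 to 4 without 1 library, with 4 of 8 reached without replicate 1 (17.6% of 664 genes), and 1 of 9 for 3 equal parts (13.1% of 654). The median GANGA ratio rose from 1.16 to 1.29 with positions counted once and 1.30 without the position with most cDNAs, and the genes above 1 in every library from 3 to 5 with positions counted once.

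Among single genes, the share before the midpoint crossed 50% under some settings. With each position counted once it was 46.5% in MYH9, 50.9% in DYNC1H1 and 49.95% in CENPE. Without the position with most cDNAs it was 38.5% in MYH9, 52.2% in DYNC1H1 and 55.6% in EEA1. Without events in clusters it was 39.5% in MYH9, 47.8% in GOLGB1 and 58.1% in EEA1, and for 3 equal parts it was 38.5% in MYH9. Leaving out 1 library gave 45.9% to 52.3% in DYNC1H1 and 47.2% to 60.0% in GOLGB1, lowest without replicate 3. The GANGA ratio fell below 1 with GAAGA alone in MYH9 (0.693), without events in clusters in DYNC1H1 (0.920), and with a motif up to 30 nt before or after the event in EEA1 (0.839) and CENPE (0.898). Leaving out 1 library gave ratios of 0.898 to 1.09 in MYH9, 0.841 to 1.47 in KIF5B, 0.883 to 1.27 in CENPE and 0.981 to 1.20 in CENPF. The cause of these shifts was not tested. The log2 ratios of coding to intronic density kept their direction under the alternatives run, but their size moved. In KIF5B the log2 ratio went from 4.97 to 6.12 without replicate 3. In MYH9 it went from 4.88 to 3.84 without events in clusters. The levels in CPM stayed within 1.5 times. The numbers of these genes counted for introns, 3′ UTRs, beads and clusters also stayed within 1.5 times. The background shares beside them were not held to this limit. For coding events alone, the beads share of all genes came close to that of these genes. Depth limits replicate 3, with 3 to 53 events per gene. No paired analysis was possible because there is no other group of samples to pair these libraries with. Genes and regions were compared within each library.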

Other observations

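The few positions of replicate 3 were not particular to the 10 genes. Over all protein-coding genes, replicate 3 had 3.84 coding cDNAs per position and 2.68 intronic ones, against 1.06 for both in replicate 4 and 1.54 and 1.45 in replicate 1. In the introns of the 10 genes the values were 1.37, 1.48 and 3.05 in replicates 1 to 3 and exactly 1 in replicate 4. In GOLGB1 the 25 coding events of replicate 3 came at 5.00 cDNAs per position, and 9 of them lay on the same nucleotide, as did 9 events of replicate 3 in each of MYH9, GOLGA4 and CENPF.

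The 10 genes took up 1.04%, 0.782%, 1.15% and 0.758% of all coding events of protein-coding genes in replicates 1 to 4.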
